A study of Mus musculus with 4 samples.

Results

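Voltage-gated calcium channels are named after the alpha-1 subunit that forms their pore, and the mouse genome has 10 Cacna1 genes for it. All 10 were taken by gene name from a table of 55471 genes, and all 10 were among the 17940 genes with enough counts to be tested. They were measured in RNA of amacrine cells, the interneurons of the inner retina, sorted from retinas of C57BL6 mice at postnatal days 6 to 7. Every animal carried Gbx2-CreERT2-IRES-EGFP, a Gbx2 allele that makes a tamoxifen-inducible Cre and a green fluorescent protein, together with the Ai9 reporter, which labels a cell and its descendants with red tdTomato once Cre has acted. All sorted cells had tdTomato. The 2 GFP-negative libraries (replicates 2 and 6) held those without green fluorescence at the time of the sort, which the series calls cell type 1, and the 2 GFP-positive libraries (replicates 2 and 3) held those with it, called cell type 2. Both fractions therefore carry the same alleles and differ by current activity of the Gbx2 allele, so a weakly active cell can fall on either side of the gate. When tamoxifen was given is not stated in the labels. RNA came from 750 to 2500 cells per sample, and 1 sample of each fraction was to be collected from each animal. Whether replicate 2 of both fractions came from 1 animal is not stated, so 2 of the 4 libraries, fitted here as independent, may share it.

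Alpha-1 subunits fall into classes by the current they carry. The L-type channels (Cacna1c, Cacna1d, Cacna1f and Cacna1s), the P/Q-type (Cacna1a), the N-type (Cacna1b) and the R-type (Cacna1e) open at strong depolarisation, and the T-type channels (Cacna1g, Cacna1h and Cacna1i) open near rest and close again quickly. P/Q- and N-type channels trigger transmitter release at most conventional synapses, while photoreceptors and bipolar cells release glutamate at ribbon synapses through L-type channels, with Cacna1f the pore of the photoreceptor channel. High-voltage channels assemble with a cytoplasmic beta subunit and an extracellular alpha2delta subunit, and T-type pores can work without them.

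T-type genes held the largest share of the alpha-1 level per kb of exon in each library. Per kb of coding sequence, T- and L-type genes were nearly level in GFP-negative replicate 2 (38.52% and 38.46%). Cacna1g had the highest mean in both fractions, although Cacna1f was slightly above it in GFP-negative replicate 2, and none of the 10 genes passed the test between the fractions. The largest differences were in Cacna1i and Cacna1e, which stood 6.67-fold and 3.79-fold lower in GFP-positive cells with separate ranges, at adjusted p values of 0.0824 and 0.118 (edgeR quasi-likelihood test, Benjamini-Hochberg adjustment over all genes tested, here and throughout). Cacna1f was low in a single library, GFP-negative replicate 6, and that library also had the least rod RNA. The genes of presynaptic P/Q- and N-type channels, Cacna1a and Cacna1b, overlapped between the fractions.

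Total gene counts were 41040667 to 44689917 per library. Gbx2, the gene behind the sort, stood at 28.7 and 55.5 CPM in the GFP-negative libraries and at 602 and 496 CPM in the GFP-positive libraries, where CPM is the count scaled by the TMM-corrected library size to a common depth. It differed by 3.71 ± 0.44 on the log2 scale (standard error, edgeR adjusted p = 0.0118), in the direction of the labels. The amacrine marker Pax6 stood at 1286 to 2245 CPM in every library, and none of the 10 amacrine markers was at 0. RNA of other retinal cells was present too. The sum over 16 rod markers was 8905 and 2499 CPM in the GFP-negative pair and 10206 and 17116 CPM in the GFP-positive pair, where a pair is always given with replicate 2 first and replicate 6 or 3 after it. In the same order the 12 bipolar markers summed to 809, 378, 1034 and 1475 CPM, the 10 cone markers to 775, 174, 743 and 1471 CPM, and the 10 amacrine markers to 3843, 5902, 2476 and 1570 CPM. By mean CPM over the 4 libraries, Sag led the rod sum, Gnb3 the cone sum and Pax6 the amacrine sum. In GFP-negative replicate 6 the cone marker Cngb3 (71.1 CPM) stood above Gnb3 (60.9 CPM). Replicate 6 of the GFP-negative fraction stands apart as the library with the lowest sums for rods, cones and bipolar cells and the highest for amacrine cells. In bulk RNA, fewer cells of a type and less RNA per cell cannot be told apart.

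To compare genes with each other, counts were divided by exonic length, since a longer transcript gives more fragments. On this scale (CPM per kb of exon, mean ± SD over the 2 libraries of a fraction), Cacna1g had the highest mean, 8.43 ± 3.55 in GFP-negative and 12.7 ± 0.15 in GFP-positive cells. In GFP-negative replicate 2 it stood at 5.92, below Cacna1f at 6.07, so these genes overlap in the GFP-negative fraction. In GFP-negative cells Cacna1h (3.83 ± 1.33), Cacna1f (3.36 ± 3.83), Cacna1d (3.04 ± 0.10) and Cacna1a (2.77 ± 0.48) came next, and each of these neighbours overlapped the one after it in its library values. Cacna1b (2.24 ± 0.14) and Cacna1i (1.77 ± 0.14) followed with separate ranges. Cacna1e (0.674 ± 0.030) and Cacna1c (0.663 ± 0.103) overlapped, and Cacna1s was last at 0.143 ± 0.154. In GFP-positive cells Cacna1f (7.79 ± 0.22) and Cacna1h (5.82 ± 0.70) came after Cacna1g with separate ranges, then Cacna1d (3.55 ± 0.96) and Cacna1a (2.88 ± 0.18), which overlapped, then Cacna1b (2.23 ± 0.10) and Cacna1c (0.570 ± 0.034). Cacna1i (0.266 ± 0.188) and Cacna1e (0.178 ± 0.019) overlapped near the bottom, above Cacna1s (0.053 ± 0.076). Part of the order depends on the length used: with the longest coding length, Cacna1g stayed first and Cacna1s last in both fractions, while Cacna1d moved from rank 4 to rank 2 in GFP-negative cells.

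**Figure D1:**
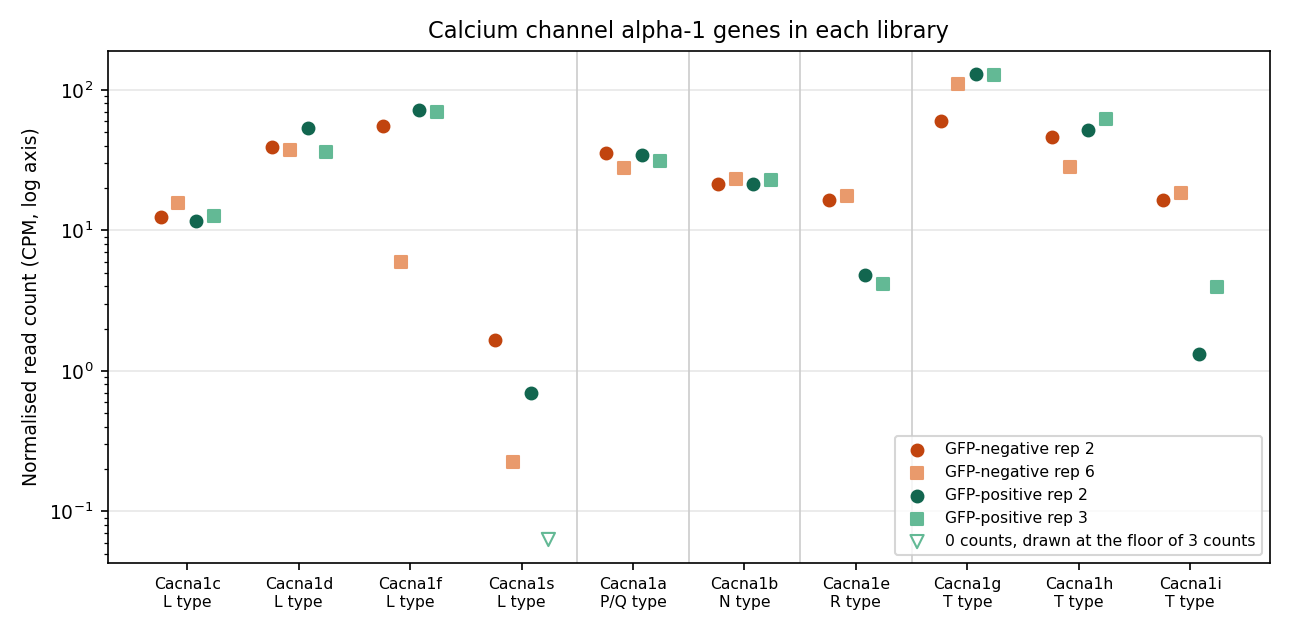
Normalised read count (CPM, log axis) of each alpha-1 gene in the 4 libraries, grouped by channel type; each point is 1 library, and the open triangle marks the library with 0 counts of Cacna1s, drawn at its floor of 3 counts. Cacna1e and Cacna1i lie lower in both GFP-positive libraries, Cacna1f is low in GFP-negative replicate 6 alone (5.95 CPM), and Cacna1a and Cacna1b overlap between the fractions.

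Summed by class, T-type genes held 43.7% and 61.5% of the alpha-1 level per kb in the GFP-negative pair and 50.1% and 54.2% in the GFP-positive pair. The GFP-positive values lie between the GFP-negative ones, and the means were 52.6% ± 12.5 and 52.1% ± 2.89. L-type genes held 35.4% and 17.2% in GFP-negative and 35.2% and 31.2% in GFP-positive cells, so the fractions overlapped and GFP-negative replicate 6 was the low one. With Cacna1f left out of the total, the L-type shares of the 4 libraries in the same order were 17.8%, 15%, 17.2% and 12.4%, and the T-type shares were 55.6%, 63.1%, 64.0% and 68.9%. P/Q-type held 10.2% ± 1.04 and 7.99% ± 0.38, N-type 8.35% ± 1.10 and 6.21% ± 0.38, and R-type 2.51% ± 0.29 and 0.494% ± 0.046 in GFP-negative and GFP-positive cells. Each of these 3 shares was lower in both GFP-positive libraries than in either GFP-negative library. Without Cacna1f the P/Q-type shares were 14.0% and 9.76% in the GFP-negative pair and 10.6% and 9.82% in the GFP-positive pair, which overlap, while the N- and R-type shares stayed separate. The summed alpha-1 level that forms the denominator was 28.3 and 25.6 CPM per kb in the GFP-negative and 36.4 and 35.6 in the GFP-positive pair, and the CPM of Cacna1a and Cacna1b overlapped between fractions. An exact two-sided permutation test over 2 against 2 libraries cannot go below p = 0.33, which is what each of the 3 gave (0.556 adjusted over the 5 types), while the L- and T-type shares gave 1.0. The R-type share depends on length, because Cacna1e has 25228 bases of annotated exon and a longest coding sequence of 6819 bases: per kb of coding sequence it was 5.78% in GFP-negative and 1.18% in GFP-positive cells.

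**Figure D2:**
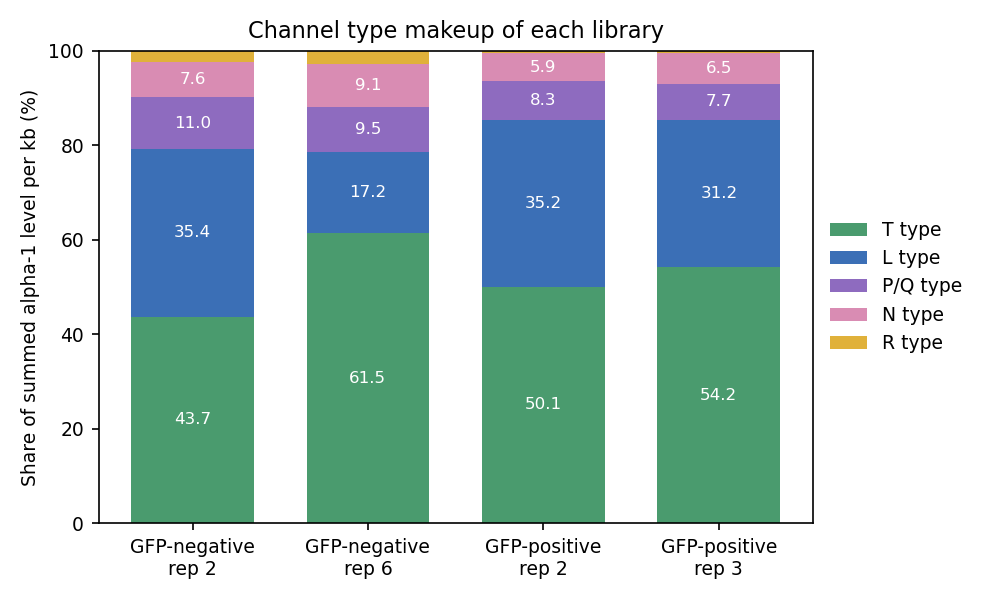
Share (%) of the summed alpha-1 level per kb of exon held by each channel type in each library, with bars stacked to 100%. T-type holds the tallest segment in every library (43.7% to 61.5%), and the L-type segment is shortest in GFP-negative replicate 6 (17.2%).

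Among T-type genes, Cacna1g (chr11:94408391-94474198, minus strand, GRCm38), the pore of Cav3.1, stood at 60.0 and 110.9 CPM in the GFP-negative pair and at 129.6 and 127.4 CPM in the GFP-positive pair. Both GFP-positive libraries were above both GFP-negative ones, with GFP-negative replicate 2 well below the rest. The edgeR log2 fold change of 0.59 ± 0.36 had an adjusted p of 0.550 and ranged from 0.15 without GFP-negative replicate 2 to 1.10 without GFP-negative replicate 6. Cacna1h, the pore of Cav3.2, stood at 46.5 and 28.2 CPM in the GFP-negative pair, against 52.0 and 61.6 CPM in the GFP-positive pair. Its fractions also did not overlap, and the edgeR log2 fold change of 0.60 ± 0.35 had an adjusted p of 0.534. For both genes the gap between the GFP-negative replicates was larger than the gap from the nearer of them to the GFP-positive libraries.

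Cacna1i (chr15:80287238-80398279, plus strand), the pore of Cav3.3, whose current closes more slowly than those of the other T-type channels, went the other way. It had 691 and 662 counts (16.5 and 18.5 CPM) in the GFP-negative pair and 60 and 187 counts (1.31 and 3.93 CPM) in the GFP-positive pair. The GFP-negative libraries agree closely and lie far above both GFP-positive ones, which differ from each other more. The log2 fold change was -2.73 ± 0.59, and the adjusted p of 0.0824 did not pass in edgeR. With a library left out it ranged from -3.74 (without GFP-positive replicate 3) to -2.17 (without GFP-positive replicate 2), at edgeR adjusted p values of 0.104 to 0.490. DESeq2 called the gene (adjusted p = 0.00106), limma-voom did not (0.114), and edgeR called it under a stricter filter of over 1 CPM in at least 2 libraries (0.0486). As a share of the T-type level per kb, Cacna1i held 13.6% and 11.9% in GFP-negative and 0.730% and 2.07% in GFP-positive libraries. Cacna1g held 47.9% and 69.7% against 70.1% and 65.2%, and Cacna1h 38.6% and 18.4% against 29.2% and 32.7%. The amacrine marker sum given above was lower in both GFP-positive libraries as well, and 5 of its 10 genes were called lower (0.870% of all genes tested). Of the other 5, Slc6a9, a glycine transporter gene, stood higher in both GFP-positive libraries and Pax6, which leads the sum, overlapped. The part of these markers in the Cacna1i difference was not tested.

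The T-type genes are close relatives, and a read can be told apart between them only where their sequences differ. The longest run that Cacna1g and Cacna1i transcripts share exactly is 68 bases of coding sequence, in exon 11 of Cacna1g-205 (chr11:94443187-94443254, minus strand) and exon 12 of Cacna1i-202 (chr15:80369688-80369755, plus strand). The matching stretch of Cacna1h, in exon 12 of Cacna1h-205 (chr17:25388574-25388641, minus strand), is 94.1% identical. The 3 versions, from GENCODE M21 transcripts, are shown because Cacna1g and Cacna1i are hardest to tell apart there. The stretch was not chosen for Cacna1h. Capitals mark bases that differ from Cacna1i.
Cacna1g: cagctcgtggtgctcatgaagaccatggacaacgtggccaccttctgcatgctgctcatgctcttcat
Cacna1h: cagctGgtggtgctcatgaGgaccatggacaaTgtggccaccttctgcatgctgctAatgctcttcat
Cacna1i: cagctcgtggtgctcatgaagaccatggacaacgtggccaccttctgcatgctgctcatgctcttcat
Such stretches are a small part of the genes. Of 9951 words of 50 bases in Cacna1i transcripts, 20 also occur in Cacna1g or Cacna1h (0.201%), and no word of the L-, P/Q-, N- or R-type genes occurs in another alpha-1 gene. Words shared with other genes, on either strand, were most frequent in Cacna1s (16.3%, Gm37759), Cacna1d (4.18%, Chdh) and Cacna1a (2.50%, Gm16183). Cacna1e shared 187 of 25490 words (0.734%), with many genes outside the family. How reads that map to several places were counted is not stated in the labels.

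The start region of Cacna1i in RefSeq (GRCm38.p6) is shown because the gene had the largest log2 fold change of the 10. The run covers 250 to 31 bases before the start (chr15:80286988-80287207, plus strand), with CG pairs in capitals.
Cacna1i: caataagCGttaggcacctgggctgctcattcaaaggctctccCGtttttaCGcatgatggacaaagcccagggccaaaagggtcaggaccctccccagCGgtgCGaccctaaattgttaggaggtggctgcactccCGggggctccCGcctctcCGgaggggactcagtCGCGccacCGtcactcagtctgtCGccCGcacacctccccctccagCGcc
The 250 bases before this start are 62.4% G or C with 16 CG pairs, against medians of 52.4% and 6.0 over 32851 RefSeq start windows. Start windows were found for 7 of the 10 genes.

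The L-type gene Cacna1f (chrX:7607083-7635196, plus strand), the pore of Cav1.4, is known for photoreceptor and bipolar cell ribbon synapses. It stood at 55.1 and 5.95 CPM in the GFP-negative pair (2307 and 213 counts) and at 72.2 and 69.4 CPM in the GFP-positive pair. The fractions do not overlap, but GFP-negative replicate 2 is close to the GFP-positive libraries and GFP-negative replicate 6 stands 9.27-fold below its own replicate. The edgeR log2 fold change of 1.21 ± 0.75 had an adjusted p of 0.563. It was 0.36 without GFP-negative replicate 6 (edgeR adjusted p = 1.00) and 3.51 without GFP-negative replicate 2, where it passed (edgeR adjusted p = 0.0197), so a single library decides its size and its call.

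Rod marker sums have their minimum in the same library. All 16 rod markers had a positive log2 fold change (median 1.38), against 9408 of the 17940 genes tested. Of the 16, 0 were called, against 1.10% of all genes tested. Relative to GFP-negative replicate 6, Cacna1f was 9.27-, 12.1- and 11.7-fold higher in GFP-negative replicate 2 and GFP-positive replicates 2 and 3, and the rod marker sum was 3.56-, 4.08- and 6.85-fold higher. Cone marker sums were 4.45-, 4.27- and 8.44-fold higher and bipolar marker sums 2.14-, 2.73- and 3.90-fold higher. The log2 fold change was positive for 9 of the 10 cone and 11 of the 12 bipolar markers, and negative for Cngb3 and Prkca. In GFP-negative replicate 6, Cngb3 gave 71.1 of 174 CPM of the cone sum and Prkca 159 of 378 CPM of the bipolar sum. Each was highest in that library, the divisor, which lowers the folds of these sums. Per 1000 rod marker reads, Cacna1f had 6.19 and 2.38 reads in the GFP-negative and 7.07 and 4.05 reads in the GFP-positive libraries. The fractions overlap on this measure (4.29 ± 2.7 and 5.56 ± 2.14), and GFP-negative replicate 6 is again the lowest of the 4. Gnb1, the rod marker with the smallest log2 fold change (0.58), gave 439 of the 2499 CPM of the rod sum there. In GFP-positive replicate 3 it gave 947 of 17116 CPM. Its share of the sum was largest in GFP-negative replicate 6, and its part in the low ratio was not tested. Cacna1f and the 3 sums thus share their lowest library. Between the GFP-positive libraries they did not move together: from replicate 2 to replicate 3 Cacna1f stood at 72.2 and 69.4 CPM, while each of the 3 sums was higher in replicate 3. How much of it came from sorted amacrine cells was not tested. Among 9746 protein-coding genes with a mean of at least 10 CPM and no library at 0, predicted genes and clones left out, the 5 whose log2 profile over the 4 libraries lay nearest to that of Cacna1f were Arhgap31, Samd11, Dmd, Samd7 and Crb2, at root mean square distances of 0.14 to 0.17. The rod markers came at places 82 (Pde6b) to 390 (Rcvrn) in that order, except Gnb1 at 994. Which cells the 5 nearest genes came from was not tested. The same measure for Cacna1g gave Szrd1, Map10, Hivep2, Tmem117 and Eml2, at 0.10 to 0.13. With 4 libraries such distances describe these samples only.

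**Figure D3:**
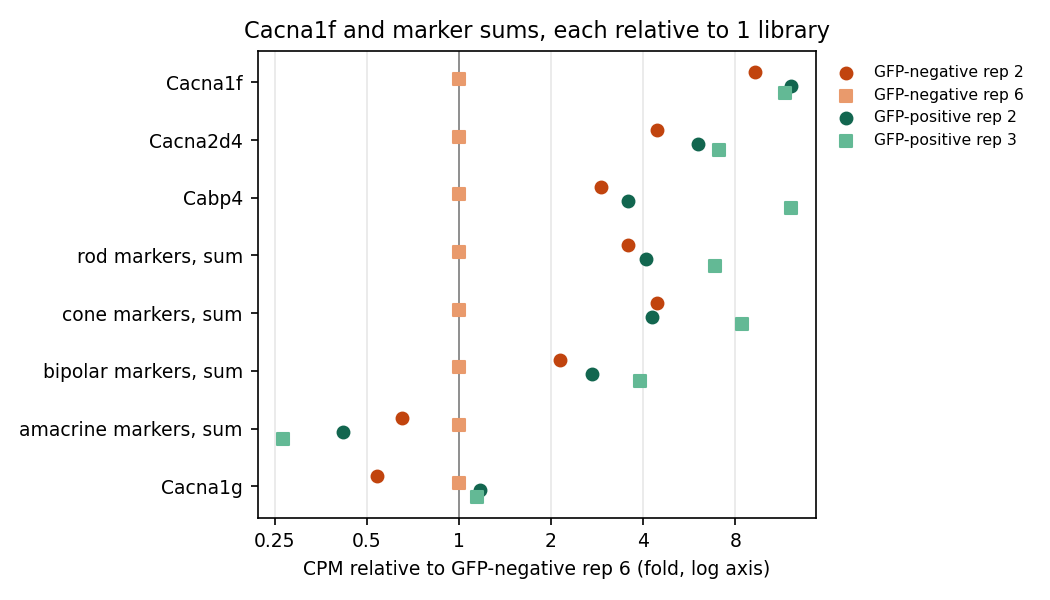
CPM of Cacna1f, of Cacna2d4 and Cabp4 (its partners in photoreceptors), of Cacna1g and of summed marker lists, each divided by its value in GFP-negative replicate 6 (log axis); points are libraries. Cacna1f and the rod, cone and bipolar sums are lowest in GFP-negative replicate 6, while the amacrine sum is highest there.

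The 220 bases that run from 250 to 31 bases before the RefSeq start of Cacna1f (chrX:7606853-7607072, plus strand, GRCm38.p6) are shown because of this pattern, again with CG pairs in capitals.
Cacna1f: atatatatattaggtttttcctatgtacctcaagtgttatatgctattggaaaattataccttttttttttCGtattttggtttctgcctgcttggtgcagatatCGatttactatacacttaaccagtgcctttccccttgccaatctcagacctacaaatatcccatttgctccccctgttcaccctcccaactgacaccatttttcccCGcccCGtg
The 250-base window is 41.6% G or C with 4 CG pairs. The letters TAATCC, the core that the photoreceptor factors CRX and OTX bind, were searched on both strands in the 250 bases before each start. They occurred in 6.25% of all windows and in 1 of the 10 windows of alpha-1 genes, that of Cacna1s, and not in that of Cacna1f. The 10 windows belong to 7 genes, as Cacna1c and Cacna1d have several starts. Cacna1a, Cacna1g and Cacna1h had no window and were not searched. TAATTA, a core of many homeobox factors, occurred in 4.84% of all windows and in none of these 10.

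The other L-type genes showed no such pattern. Cacna1d, the pore of Cav1.3, stood at 39.3 and 37.5 CPM in the GFP-negative pair, against 53.4 and 36.3 CPM in the GFP-positive pair. The values overlap, with GFP-positive replicate 2 alone above the rest (log2 fold change 0.22 ± 0.33, edgeR adjusted p = 0.836). Cacna1c, the pore of Cav1.2, stood at 12.5 and 15.6 CPM in the GFP-negative pair, against 11.6 and 12.6 CPM in the GFP-positive pair, which also overlap (-0.22 ± 0.42, edgeR adjusted p = 0.883). In GFP-negative replicate 6, Cacna1d held 67.6% of the L-type level per kb and Cacna1f 14.9%; in the other libraries Cacna1f held 60.5% to 68.7% and Cacna1d 25.9% to 33.0%. Cacna1s, the pore of the skeletal muscle channel Cav1.1, had 69 and 8 counts in GFP-negative and 32 and 0 counts in GFP-positive libraries. The zero allows up to 0.0631 CPM (3 counts, counting error only), and the fractions overlap (-1.5 ± 1.34, edgeR adjusted p = 0.700). The antisense gene Gm37759 overlaps 20.0% of the exonic bases of Cacna1s, so without a stated strand setting even these few reads are uncertain.

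Cacna1a, the pore of the P/Q-type channel Cav2.1, stood at 35.4 and 27.7 CPM in the GFP-negative pair, against 34.3 and 31.4 CPM in the GFP-positive pair. The GFP-positive values lie inside the GFP-negative range (log2 fold change 0.06 ± 0.33, edgeR adjusted p = 0.972). Cacna1b, the pore of the N-type channel Cav2.2, stood at 21.3 and 23.2 CPM in the GFP-negative pair and at 21.5 and 22.9 CPM in the GFP-positive pair, which overlap. It was the member with the least difference between the fractions (0.00 ± 0.35, edgeR adjusted p = 1.00), and its sign turned with the scaling.

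Cacna1e (chr1:154390731-154884501, minus strand), the pore of the R-type channel Cav2.3, had 689 and 628 counts (16.5 and 17.5 CPM) in the GFP-negative pair and 221 and 197 counts (4.83 and 4.14 CPM) in the GFP-positive pair. The replicates of each fraction lie close together, and the fractions do not overlap. The log2 fold change was -1.92 ± 0.46, and the adjusted p of 0.118 did not pass in edgeR. DESeq2 called the gene (adjusted p = 0.00208) and limma-voom did not (0.158). Its log2 fold change kept within -1.82 and -2.06 whichever library was left out.

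The fractions were compared over all genes, with adjusted p under 0.05 as the call. Of the 10 alpha-1 genes 0 were called by edgeR, against 1.10% of the 17940 genes tested (0.234% higher and 0.870% lower in GFP-positive cells). At an unadjusted p under 0.05 there were 2 of 10 (Cacna1e and Cacna1i, both lower), against 12.6% of all genes, or 7.34% counting only those lower. DESeq2 called the same 2 genes, against 4.60% of all genes, and limma-voom called 0, against 0.513%. Ranges did not overlap for 5 of the 10, against 43.8% of all genes tested: 3 higher in GFP-positive cells (Cacna1f, Cacna1g and Cacna1h, background 22.5%) and 2 lower (Cacna1e and Cacna1i, background 21.3%). With 5 positive and 5 negative values, the median log2 fold change was 0.03, against 0.04 over all genes tested. Without Cacna1f, the summed alpha-1 level was 22.2 and 24.9 CPM per kb in the GFP-negative pair and 28.5 and 28.0 in the GFP-positive pair. The biological coefficient of variation over all genes was 55.4%, with 2 libraries per fraction.

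**Figure D4:**
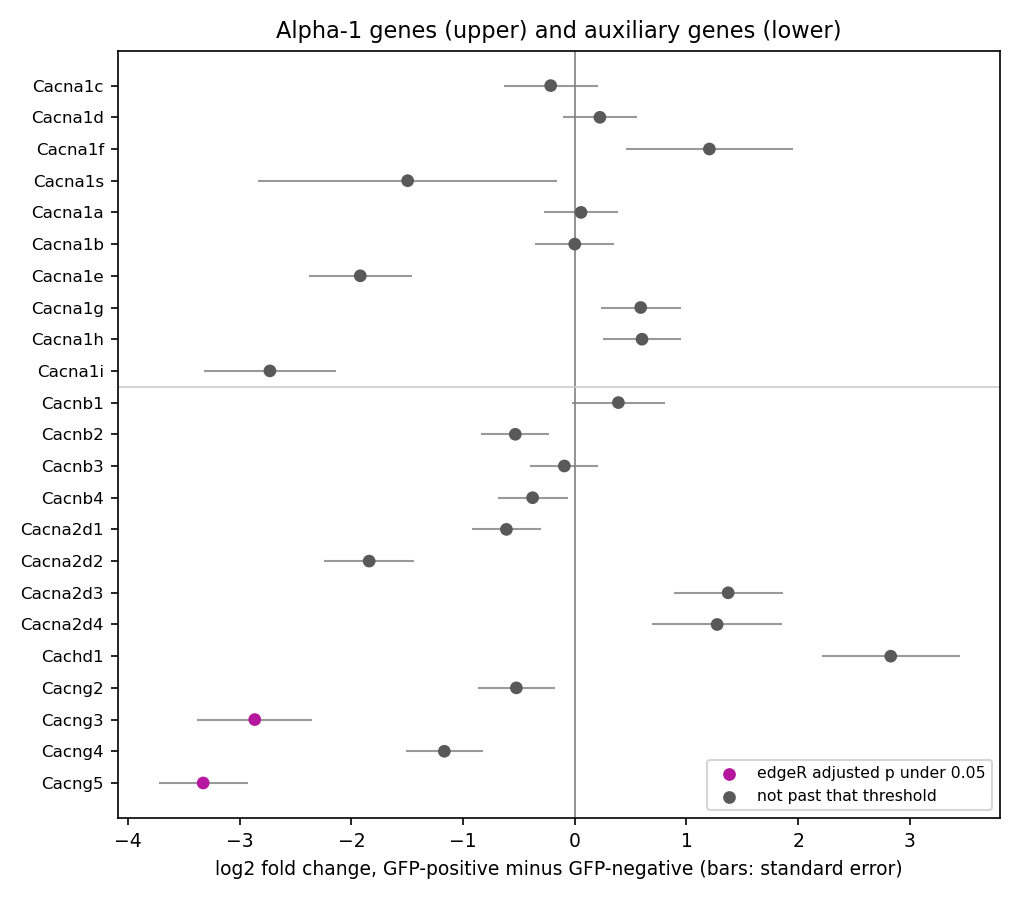
log2 fold change (GFP-positive minus GFP-negative, edgeR) of the 10 alpha-1 genes and of the beta, alpha2delta and gamma family genes with at least 5 CPM in a fraction; bars are standard errors and colour marks adjusted p under 0.05. Cacng3 and Cacng5 passed, and none of the alpha-1 genes did.

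The beta subunits, which carry high-voltage pores to the membrane, were all present (median log2 fold change -0.24). None of the 4 passed, against 1.10% of all genes tested. Cacnb3 stood at 122 and 145 CPM in the GFP-negative pair, against 138 and 113 CPM in the GFP-positive pair, which overlap. Cacnb2, the main beta subunit of the photoreceptor channel, stood at 95.0 and 71.0 CPM against 55.9 and 58.9 CPM. It was lower in both GFP-positive libraries (log2 fold change -0.53 ± 0.30, edgeR adjusted p = 0.528). Cacnb4 stood at 43.9 and 51.0 against 33.2 and 39.8 CPM, also without overlap, and Cacnb1 at 27.0 and 33.8 against 54.4 and 25.3 CPM, with overlap.

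Genes of the alpha2delta family, which raise channel number at the surface and act in synapse formation, pointed in both directions. None of the 5 passed (1.10% of all genes tested). An unadjusted edgeR p under 0.05 was found for 3 (12.6% of all genes tested), and all 5 had separate ranges (43.8% of all genes tested). Cacna2d2 stood at 57.5 and 99.3 CPM in the GFP-negative pair, against 27.1 and 16.6 CPM in the GFP-positive pair (log2 fold change -1.84 ± 0.40, edgeR adjusted p = 0.0830). Cacna2d1, which binds gabapentin as Cacna2d2 does, stood at 60.0 and 81.4 against 43.3 and 49.2 CPM. Cachd1, an alpha2delta-like protein, stood at 1.46 and 4.38 against 25.7 and 15.1 CPM (2.83 ± 0.62, edgeR adjusted p = 0.0841). Cacna2d3 stood at 22.1 and 9.30 against 52.1 and 29.5 CPM (1.37 ± 0.49, edgeR adjusted p = 0.291). These last values are higher in both GFP-positive libraries, and for Cacna2d3 the lowest library is again GFP-negative replicate 6. Cacna2d4, the alpha2delta subunit of the photoreceptor channel, stood at 139 and 31.5 CPM in the GFP-negative pair, against 191 and 223 CPM in the GFP-positive pair. Like Cacna1f it was low in GFP-negative replicate 6 alone, 4.43-fold below replicate 2. Cabp4, a calcium-binding protein of the same channel that was picked after its values were seen, stood at 12.9 and 4.44 against 15.9 and 54.0 CPM. Rod marker sums were lowest in that library too, and their part in these values was not tested.

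**Figure D5:**
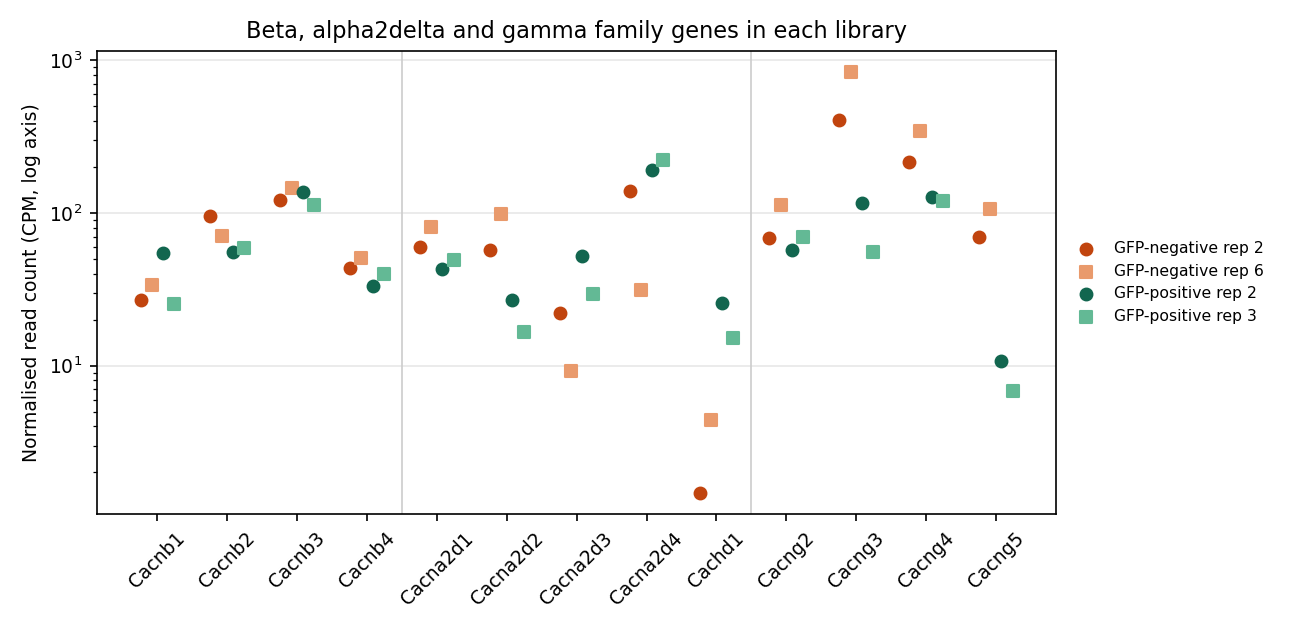
Normalised read count (CPM, log axis) of beta, alpha2delta and gamma family genes with at least 5 CPM in a fraction; each point is 1 library. Cacng3 and Cacng5 lie lower in both GFP-positive libraries, and Cacna2d4 is low in GFP-negative replicate 6 (31.5 CPM).

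The gamma family is named after a subunit of the muscle calcium channel, but Cacng2, Cacng3, Cacng4 and Cacng5 are better known as partners that traffic and tune AMPA-type glutamate receptors. All 7 tested members had negative log2 fold changes (median -0.79), against 8532 of the 17940 genes tested. Of the 7, 2 fell in GFP-positive cells, against 0.870% of all genes tested called lower. Cacng5 fell from 70.0 and 106 CPM to 10.8 and 6.79 CPM (log2 fold change -3.33 ± 0.40, edgeR adjusted p = 0.0118). Cacng3 fell from 405 and 841 CPM to 116 and 55.1 CPM (-2.87 ± 0.51, edgeR adjusted p = 0.0421). Both calls were lost without GFP-negative replicate 6 (edgeR adjusted p = 0.115 and 0.253) and without GFP-positive replicate 3 (0.0823 and 0.377), and that of Cacng3 also without GFP-positive replicate 2 (0.101), with no filter, in limma-voom and in the legacy edgeR fit. Cacng4 stood at 214 and 343 against 127 and 121 CPM (edgeR adjusted p = 0.213) and Cacng2 at 68.7 and 114 against 57.2 and 69.6 CPM (edgeR adjusted p = 0.582). The muscle subunit Cacng1 was below 1 CPM in every library, and Cacng6 was at 0 in all 4.

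Among 19 genes for modulators of the pore, 18 were tested and 1 was called lower, against 0.870% of all genes tested. Stac2, an adaptor that binds L-type channels and slows their inactivation, fell from 92.3 and 90.9 CPM in GFP-negative to 16.6 and 11.8 CPM in GFP-positive libraries. The edgeR log2 fold change of -2.69 ± 0.34 had an adjusted p of 0.0125, and the call was lost when GFP-negative replicate 6 was left out (edgeR adjusted p = 0.115), and when GFP-positive replicate 3 was (0.0977). The calmodulin gene Calm2 stood at 1013 and 1576 against 1006 and 1039 CPM, and its fractions overlapped. Calm3 stood at 500.1 and 525 against 191 and 254 CPM, with no overlap (edgeR adjusted p = 0.190).

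Of 14 genes for active zone proteins, which hold channels at release sites, none passed, against 1.10% of all genes tested. The log2 fold change was negative for 9 and positive for 5 (median -0.27), against 8532 and 9408 of the 17940 genes tested. Pclo, a giant scaffold of the active zone, stood at 221 and 316 CPM in the GFP-negative pair, against 148 and 143 CPM in the GFP-positive pair. Rims2, which tethers channels near vesicles, stood at 191 and 202 against 126 and 112 CPM. Both were lower in each GFP-positive library (edgeR adjusted p = 0.313 and 0.364). Unc13b, a vesicle priming factor, stood at 160 and 91.5 against 126 and 134 CPM, which overlap. Of 15 genes for calcium-activated and calcium-release channels, 14 were tested (median log2 fold change 0.00). None passed, against 1.10% of all genes tested. Kcnma1, the large-conductance potassium channel opened by calcium and voltage, stood at 124 and 116 against 64.5 and 74.8 CPM, with separate ranges (edgeR adjusted p = 0.313). Kcnn1, a small-conductance potassium channel, stood at 23.5 and 19.0 against 41.9 and 34.1 CPM, separate in the other direction (edgeR adjusted p = 0.362). Ano2, a calcium-activated chloride channel of photoreceptor terminals, stood at 98.7 and 19.6 against 104 and 140 CPM, again lowest in GFP-negative replicate 6.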

How the data were processed

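RNA of 4 sorted libraries was compared. Per the labels' protocols, the Agilent Absolutely RNA Nanoprep kit gave the RNA and Takara's SMART-Seq kit for very small inputs the cDNA. The authors deposited raw read counts per Ensembl gene. The submitters' processing notes list STAR 2.7.3a, Trimmomatic, limma and MultiQC, with GRCm38 as the build, without saying what each did. No counter, annotation or strand setting is given in the sources used here. A second deposited table, of scaled values, was not used here. The series text states 4 biological replicates from 3 litters, of which 2 libraries per fraction were analysed here. The edgeR p-values set the difference between fractions against the variation between these libraries, which the fit estimates partly from other genes.

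The fractions were compared on these counts in R 4.3.3 with edgeR 4.0.16, using TMM scaling, filterByExpr (minimum count 10, minimum total 15), glmQLFit (robust, legacy off) and glmQLFTest, 17940 genes of 27925 with a count, 2 residual degrees of freedom, adjusted p under 0.05. A standard error is the size of the log2 fold change divided by root F. DESeq2 1.42.0, limma-voom (3.58.1), other scalings and filters, and fits without each library were alternatives. The edgeR step was also run on simulated counts, drawn as independent libraries at the dispersions fitted here. That run does not cover libraries that share an animal, and its outcome is not reported here. Exonic lengths are the merged exons of GENCODE M21 (GRCm38), which held 55230 of the 55471 gene IDs; start windows are from RefSeq. Floors allow for counting error alone, because the reads carry no molecular identifiers.

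The alpha-1 genes and all lists were chosen with earlier results of these data known. Named are all 10 members, subunit genes with at least 5 CPM in a fraction, and of other lists the called genes and the 3 with the highest mean CPM; some that this rule names are not reported here. Further lists (ganglion, horizontal, Müller, vascular and microglial markers) gave the sums in the closing section.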

Additional observations from a re-analysis of the deposited data

How the results depend on the processing

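The main analysis called 0 alpha-1 genes. DESeq2 called 2 (Cacna1e and Cacna1i), the filter of over 1 CPM in at least 2 libraries called 1 (Cacna1i), and leaving out a library gave 0 to 1 (Cacna1f, without GFP-negative replicate 2). The count over all genes, 198, was 106 without a filter, 323 under the stricter filter, 48 in the legacy edgeR fit (an alternative added after seeing the data), 794 in DESeq2, 92 in limma-voom, and 1 to 336 without a library: 1 when GFP-negative replicate 6 was dropped, 5 for GFP-positive replicate 3, 108 for its replicate 2 and 336 for replicate 2 of the GFP-negative fraction. The causes were not tested. Of 139 refitted log2 fold changes of alpha-1 genes, 11 turned in sign, all of genes not called. Cacna1b gave 0.057 with upper-quartile factors, 0.17 with library size only, 0.00048 without rod and cone markers, 0.016 under the stricter filter and 0.0026 in limma-voom. Without a library, Cacna1a ranged from -0.11 to 0.19 (also -0.030 without GFP-positive replicate 2), Cacna1b from -0.12 to 0.065 (also 0.024), Cacna1d from -0.10 to 0.47 and Cacna1s from -8.35, a fit against a group at 0 and no bound, to 0.56. Library size as the only scaling moved the median of all genes from 0.04 to 0.21.

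The R-type share difference of -2.02 percentage points was -2.74 with the longest transcript, -4.60 with coding length and -2.24 without Cacna1f; the length settings divide by fewer bases. Without a library the differences ranged from -2.25 to 16 points for L-type, -9.34 to 8.41 for T-type, -2.99 to -1.52 for P/Q-type, -2.92 to -1.36 for N-type and -2.23 to -1.82 for R-type. No paired analysis was possible because the fractions share only replicate number 2. Depth limits Cacna1s most, with 0 to 69 counts.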

Other observations

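Markers of further cell types are given as values. The sum over 10 ganglion cell markers was 307 and 355 CPM in the GFP-negative pair (replicates 2, then 6) and 225 and 102 CPM in the GFP-positive pair (replicates 2, then 3). Nefl led this sum, with 191, 240, 94.8 and 32.5 CPM in that order. Of the ganglion cell markers, 4 had positive and 6 negative log2 fold changes (median -0.48). Ranges were separate for 3 that stood higher in GFP-positive cells (Rbpms, Pou4f3 and Isl2) and for 4 that stood lower. In the same order, the 10 Müller glia markers summed to 1698, 2094, 747 and 907 CPM and the 5 horizontal cell markers to 28.0, 20.8, 49.8 and 25.7 CPM. The 12 endothelial and pericyte markers summed to 95.5, 64.6, 123 and 118 CPM and the 8 microglia markers to 104, 69.2, 36.9 and 116 CPM. Kdr alone gave 79.7, 58.6, 118 and 69.3 CPM of the endothelial and pericyte sum. In that list Cdh5 (0, 0.0559, 0 and 2.17 CPM) was highest in GFP-positive replicate 3. Pecam1 (1.27, 0.335, 0.678 and 0.421 CPM) was highest in GFP-negative replicate 2. The Müller list was led by Dkk3 (1008, 1577, 244 and 131 CPM), which fell in GFP-positive cells (edgeR adjusted p = 0.0342). It was the 1 gene called lower among the 10, against 0.870% of all genes tested. The list as a whole did not follow it, with 5 positive and 5 negative log2 fold changes (median -0.05). Rlbp1 and Slc1a3 stood higher in both GFP-positive libraries.

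Some alpha-1 genes share exonic bases with a gene on the opposite strand. Tpsg1, a mast cell protease gene, overlaps 158 exonic bases of Cacna1h and had 267 and 328 counts in the GFP-negative pair and 56 and 28 counts in the GFP-positive pair, against 1010 to 2929 counts of Cacna1h. Chdh overlaps 589 exonic bases of Cacna1d, with 0 to 41 counts, and Gm16183 overlaps 435 of Cacna1a, with 5 to 57 counts.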
